A study of Homo sapiens with 8 samples.

Results

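The regions described here are the MBD-seq peaks of the distal long arm of chromosome 17, a stretch that neuroblastoma (NB) tumors often gain. A peak was a member when its midpoint lay on chr17 from 45 to 79 Mb (GRCh37) in the deposited list of a cell line. Over 8 lists these were 18929 of 702011 autosomal peaks. From 1854 peaks in SJNB-1 to 3055 in IMR-32 fell in the segment, called distal 17q below. The stretch of chr17 below 22 Mb on the short arm, called 17p, held 6140 peaks and served for comparison within the chromosome.

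MBD-seq enriches sheared DNA for methylated fragments through the part of MBD2 that binds methyl-CpG, and regions where the sequenced fragments pile up are called as peaks. The study profiled 8 established NB cell lines, cultures grown from tumors of the sympathetic nervous system, to find methylated promoters. By their labels N206, IMR-32, CHP-902R and LAN-2 have an amplified *MYCN* oncogene (MNA), and SK-N-AS, CLB-GA, SJNB-1 and SH-SY5Y do not (*MYCN* single copy). The labels name no treatment of the cells, and each line was sequenced once, so that the 4 lines of a *MYCN* group are its replicates and a line has no replicate of its own. The study's supplement also lists CHP-902R as MNA, while its results text leaves CHP-902R out of both groups, and values without CHP-902R are among those in the closing section.

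Gain of distal 17q is the most frequent segmental change of chromosomes in aggressive NB, and usually arises when the end of the long arm is joined to another chromosome, so that the segment has extra copies while 17p does not. Capture by MBD depends on how many methylated CpG lie together on a fragment, so CpG-rich sequence gives more peaks. Extra copies of a stretch also supply more fragments to the capture. The labels give no copy number of chr17 for any line, and no input DNA was analysed here. A larger number of peaks from extra DNA and one from more methylation therefore cannot be told apart in these lists.

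The sequence of the segment differed from that of the genome as a whole. Distal 17q holds 33.9 Mb of known sequence with 1.35 CpG per 100 bp and 373 protein-coding genes with a TSS in it. The autosomes outside chr17 have 0.982 CpG per 100 bp. The 17p stretch is richer than distal 17q, with 1.60 CpG per 100 bp over 21.8 Mb and 346 protein-coding genes. Distal 17q makes up 1.26% of the autosomal sequence and 1.71% of the autosomal CpG.

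Regions of distal 17q captured in many lines were found by merging overlapping peaks of all lines, which gave 8144 regions in the segment. Of these, 93 (1.14%) had a peak in all 8 lines, against a background of 0.649% of all 362998 autosomal regions. Merging can link peaks in a chain, and in some of the 93 no base was common to the peaks of all lines. Of the 6 regions that ranked highest within the lists by score, 5 are shown, because they are among the stretches of distal 17q called most strongly in every line. The score of a peak is the value that MACS gives it from its p-value, and it rises as p falls. The middle 200 bp of the interval common to the peaks of all lines is given on the plus strand of GRCh37, 5′ to 3′, with each CpG in capitals.
chr17:72510580-72510779: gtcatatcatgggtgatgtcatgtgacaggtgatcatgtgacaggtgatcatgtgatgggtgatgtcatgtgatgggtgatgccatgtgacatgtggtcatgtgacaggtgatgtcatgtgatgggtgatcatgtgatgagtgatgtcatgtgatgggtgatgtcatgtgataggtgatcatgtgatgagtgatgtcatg
chr17:54821102-54821301: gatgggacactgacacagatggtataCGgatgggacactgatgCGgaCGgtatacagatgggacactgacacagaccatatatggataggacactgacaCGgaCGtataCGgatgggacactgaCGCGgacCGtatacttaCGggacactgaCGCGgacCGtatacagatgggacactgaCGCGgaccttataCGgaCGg
chr17:75714704-75714903: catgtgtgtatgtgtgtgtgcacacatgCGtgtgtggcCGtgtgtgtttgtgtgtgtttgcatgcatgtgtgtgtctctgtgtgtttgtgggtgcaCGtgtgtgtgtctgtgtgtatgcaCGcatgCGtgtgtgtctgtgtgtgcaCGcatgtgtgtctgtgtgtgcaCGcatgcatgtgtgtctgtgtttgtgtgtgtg
chr17:70549818-70550017: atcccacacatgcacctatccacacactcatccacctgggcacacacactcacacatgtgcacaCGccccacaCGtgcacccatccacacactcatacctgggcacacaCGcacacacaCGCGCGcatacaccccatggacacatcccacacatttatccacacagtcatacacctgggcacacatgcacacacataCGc
chr17:75824842-75825041: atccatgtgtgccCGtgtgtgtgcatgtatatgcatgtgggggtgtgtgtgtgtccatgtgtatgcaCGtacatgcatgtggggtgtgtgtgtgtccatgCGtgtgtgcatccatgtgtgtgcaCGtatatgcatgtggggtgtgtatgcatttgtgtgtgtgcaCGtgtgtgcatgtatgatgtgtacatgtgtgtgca

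The first of these stood 6152 bp from *CD300LB*, a receptor gene of myeloid cells, and scored from 243.9 in CLB-GA to 439.48 in SH-SY5Y. Its shown stretch is a run of short repeated units with 0 CpG, although the interval common to the lines (964 bp) holds 11 CpG. The second lay in intergenic sequence 47732 bp from *C17orf67* and was the densest in CpG, with 17 CpG in the shown stretch and 6.02 CpG per 100 bp over its common interval. Its scores ran from 230.93 in N206 to 398.87 in SK-N-AS. The third and the last shown, between *SEPTIN9* and *TNRC6C*, consist of runs of alternating T and G broken by CpG. The fourth shown lay in an intron of *LINC00511*, a long noncoding RNA gene, and scored from 137.59 in SK-N-AS to 278.41 in N206. Of the windows of 45 bp, a read length, in the common intervals of these 5 regions, 84.2% to 100% occurred once in the genome.

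Regions that separated the *MYCN* groups were few. In distal 17q, 19 regions (0.233%) had a peak in all 4 MNA lines and in no single copy line, against a background of 0.121% of autosomal regions. This count was 9 with lists of equal length and 2 with scores of 100 or more, and the lists of the MNA lines were longer on average. The opposite pattern was found in 5 regions (0.0614%), against a background of 0.0394%. Of the 19, 13 lay in introns, 5 between genes and 1 in an exon, and 1 of them touched a promoter.

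The 4 highest in rank by score among the MNA regions were not unique sequence. Of the 45 bp windows in their common intervals, 32.5%, 75.9%, 48.2% and 59.3% in order of rank occurred once in the genome. The first and second lay between genes, nearest to *TOM1L1* and to *KCNJ2*, the third in an intron of ENSG00000285785, and the fourth in an intron of *BCAS3*, a gene named for its amplification in breast cancer. The region in *BCAS3* scored 56.89 in N206, 84.72 in LAN-2, 85.42 in IMR-32 and 144.34 in CHP-902R. All 4 MNA lines were thus above the lowest score of 50 that the lists hold, N206 by little. How far reads that map to several places bear on these peaks was not tested.

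The regions with a peak in the 4 single copy lines and in no MNA line lay at *LRRC37A17P*, *CYB561*, *ANKRD40* and *UBE2O* for the 4 highest in rank. At *CYB561*, a cytochrome gene, and *UBE2O*, a gene of ubiquitin transfer, no base was common to the peaks of the 4 lines, so no sequence is shown. The promoter of *CYB561* as a whole did not separate the groups, since it had a peak in all 8 lines, with scores of 57.32 to 142.42 in the MNA lines. The gene body of *LRRC37A17P* also held 1 peak in each MNA line, so its promoter peak separated the groups and its body did not. At *LRRC37A17P*, a pseudogene, and in an exon of *ANKRD40* the common stretches were as follows, shown because their peaks go with *MYCN* single copy.
chr17:45094478-45094677: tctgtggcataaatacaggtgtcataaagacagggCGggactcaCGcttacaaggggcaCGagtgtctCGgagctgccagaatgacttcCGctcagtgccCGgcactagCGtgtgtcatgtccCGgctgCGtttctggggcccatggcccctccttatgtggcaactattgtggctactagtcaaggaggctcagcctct
chr17:48776850-48777049: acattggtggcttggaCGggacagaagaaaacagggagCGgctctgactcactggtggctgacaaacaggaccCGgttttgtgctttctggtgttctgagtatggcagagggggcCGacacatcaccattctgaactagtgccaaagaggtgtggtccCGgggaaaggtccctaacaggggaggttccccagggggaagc

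The peak at *LRRC37A17P* scored 91.2 in SK-N-AS, 85.24 in CLB-GA, 87.86 in SH-SY5Y and 86.84 in SJNB-1, and 57.6% of its 45 bp windows occurred once in the genome. The peak in *ANKRD40* scored 68.56, 52.45, 90.9 and 68 in the same lines, and 100% of its windows occurred once. The second of these levels was close to the lowest score in the lists. No test across regions was made on these counts, since a line without a called peak has no score for a region.

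Distal 17q held more peaks than its length or its CpG content gives in every line. The segment took 3.48% of the autosomal peaks in IMR-32, 2.69% in CHP-902R, 2.49% in N206 and 1.96% in LAN-2. Among the single copy lines, CLB-GA had 3.13%, SH-SY5Y 2.85%, SK-N-AS 2.57% and SJNB-1 2.64%. IMR-32 was the highest and LAN-2 the lowest, so both extremes were MNA lines and the groups overlapped. All 8 shares were above the 1.71% of autosomal CpG that lies in the segment. The 95% Wilson intervals, which cover counting error only, did not overlap between IMR-32 (3.36% to 3.60%) and CLB-GA (3.01% to 3.26%). They did not overlap between CLB-GA and SH-SY5Y (2.74% to 2.96%), or between N206 (2.39% to 2.59%) and LAN-2 (1.88% to 2.04%). Between these, the neighbours in the order SH-SY5Y, CHP-902R, SJNB-1, SK-N-AS and N206 had overlapping intervals.

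**Figure D1:**
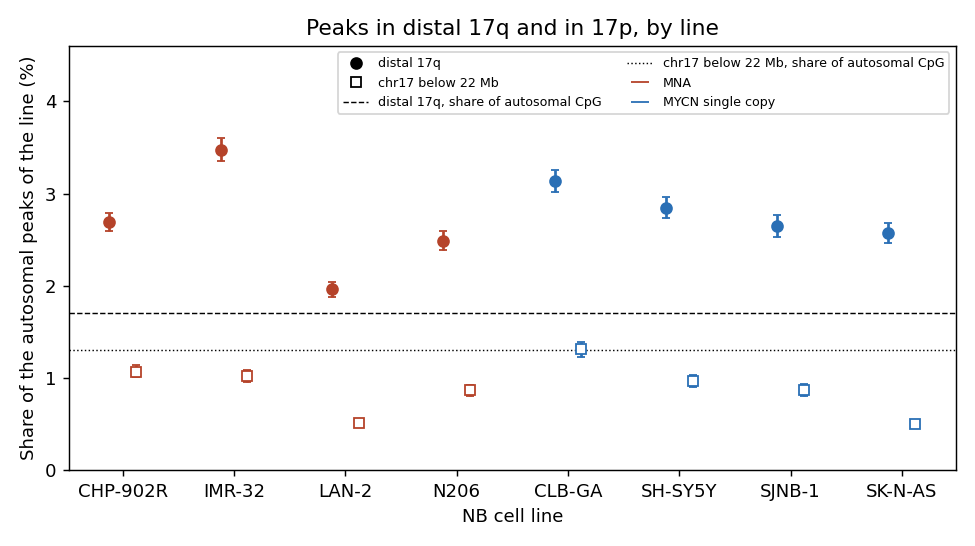
Share of the autosomal peaks of each NB cell line (%) that lay in distal 17q (filled circles) and in chr17 below 22 Mb (open squares), with 95% Wilson intervals, in the 4 MNA lines (red) and the 4 *MYCN* single copy lines (blue). Dashed and dotted lines mark the share of autosomal CpG in each segment. All 8 circles, from 1.96% to 3.48%, are above the dashed line at 1.71%, and all squares are below their circles.

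The length covered by peaks had the same highest line, and as a share of all cover the same lowest line. Peaks covered 1.27 Mb of distal 17q in SJNB-1, 1.29 Mb in LAN-2, and 2.25 Mb in IMR-32. As a share of the cover of all autosomal peaks, distal 17q had 3.96% in IMR-32, 3.21% in CHP-902R, 2.92% in N206 and 2.17% in LAN-2. Among the single copy lines, CLB-GA had 3.5%, SH-SY5Y 3.27%, SK-N-AS 3.11% and SJNB-1 3.22%. In each line the share of cover exceeded the share of peaks, since the peaks of the segment were wider. Their median width was 27 to 72.5 bp above that of peaks outside chr17 (mean 53.25 bp, 8 of 8 lines, two-sided exact sign-flip permutation test, p = 0.0078, adjusted p = 0.0134). This is the smallest p that 8 lines allow, and adjusted values here and below are Benjamini-Hochberg values over 12 tests.

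*MYCN* status did not separate the lines in these shares. The share of peaks was 2.65% ± 0.629 in MNA lines (SD, n = 4) and 2.80% ± 0.252 in single copy lines (SD, n = 4). The difference of -0.146 percentage points was smaller than that spread (two-sided exact permutation test, p = 0.714, adjusted p = 0.779). For the share of cover, the means were 3.06% ± 0.739 and 3.28% ± 0.165, and the difference of -0.214 percentage points had p = 0.629 in the same exact test (adjusted p = 0.754). The smallest p that 4 lines against 4 allow is 0.0286. Without LAN-2, the line with the longest list, both differences turned positive (0.0844 and 0.0835 percentage points). Without IMR-32, the line with the highest shares, they were -0.421 and -0.512 percentage points (two-sided exact permutation test, p = 0.143 and 0.0571).

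Against 17p, distal 17q was higher in every line. The density of peaks in distal 17q was 90.1 per Mb in IMR-32, 76.9 in CHP-902R, 71.3 in CLB-GA, 70.4 in SH-SY5Y, 67.1 in N206, 64.4 in SK-N-AS, 63.6 in LAN-2 and 54.7 in SJNB-1. In 17p it was 41.0, 47.6, 46.3, 37.2, 36.3, 19.4, 25.9 and 27.8 per Mb in the same order. The lowest density in distal 17q thus exceeded the highest in 17p. The quotient of both densities ran from 1.54 in CLB-GA to 3.31 in SK-N-AS and was 2.45 in LAN-2, the line with the next highest value. On the log2 scale the mean was 1.03 ± 0.355 (SD, n = 8), a 2.04-fold density (two-sided exact sign-flip permutation test, p = 0.0078, adjusted p = 0.0134). The MNA and single copy lines had means of 1.00 ± 0.266 and 1.06 ± 0.470 (SD, n = 4 each), and the difference of -0.06 was within the spread (two-sided exact permutation test, p = 0.857, adjusted p = 0.857). It was 0.16 without SK-N-AS and 0.04 without CHP-902R.

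The high quotients of SK-N-AS and LAN-2 went with few peaks in 17p. These lines had 424 and 565 peaks there, against 607 to 1037 in the other lines. Their shares of autosomal peaks in 17p were 0.50% and 0.514%, whereas the other lines had 0.866% to 1.31%. In distal 17q the interval of SK-N-AS overlapped those of SJNB-1 and N206, and the share of LAN-2 was the lowest of all.

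Against the autosomes outside chr17, which had 25.6 to 40.7 peaks per Mb, the density in distal 17q was 1.56-fold in LAN-2 and 2.84-fold in IMR-32, with the other lines from 2.01 to 2.56-fold. The mean log2 ratio was 1.12 ± 0.257 (SD, n = 8), or 2.18-fold (two-sided exact sign-flip permutation test, p = 0.0078, adjusted p = 0.0134). Counted per CpG of the reference, the ratio fell to 1.14 in LAN-2 and 2.07 in IMR-32, and the mean was 1.59-fold (log2 0.67 ± 0.257, SD, n = 8, p = 0.0078 in the same exact test, adjusted p = 0.0134). All 8 lines were above 1 on each scale.

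The number in the segment was also set against the number that bins of 100 kb of like CpG content held elsewhere in the same line. This measure was chosen after seeing the data. Distal 17q had 2.08 times this number in IMR-32, 1.65 in CHP-902R, 1.54 in N206 and 1.25 in LAN-2. Among the single copy lines, CLB-GA had 1.70, SK-N-AS 1.64, SH-SY5Y 1.62 and SJNB-1 1.55. Single copy lines were close to each other, and MNA lines held both the lowest and the highest value. The mean was 1.62-fold (log2 0.69 ± 0.202, SD, n = 8, two-sided exact sign-flip permutation test, p = 0.0078, adjusted p = 0.0134).

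The 17p stretch went the other way on this measure. It had 0.434 times the number in bins of like CpG content in SK-N-AS, 0.449 in LAN-2, and 0.675 to 0.924 in the other lines. All 8 values were below 1 (mean log2 -0.56 ± 0.414, SD, n = 8, two-sided exact sign-flip permutation test, p = 0.0078, adjusted p = 0.0134). Both parts of chr17 thus differed in opposite directions from sequence of like CpG content in each line.

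Other parts of the genome reached values like that of distal 17q. Of 68 other autosomal windows of 34 Mb, 2 had a mean ratio over lines at or above the 1.63 of distal 17q, and both lay on the long arm of chromosome 1, at chr1:170000001-204000000 and chr1:204000001-238000000, with 1.82 and 1.93. Within lines distal 17q ranked 2 in CLB-GA, 3 in CHP-902R and IMR-32, 5 in SH-SY5Y, 6 in SK-N-AS, 8 in N206, 9 in SJNB-1 and 16, its lowest rank, in LAN-2. The shares of distal 17q varied less between lines than those of most windows. Their coefficient of variation was 16.5%, and 52 of the 68 windows had as much or more, with a median of 23.1%.

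**Figure D2:**
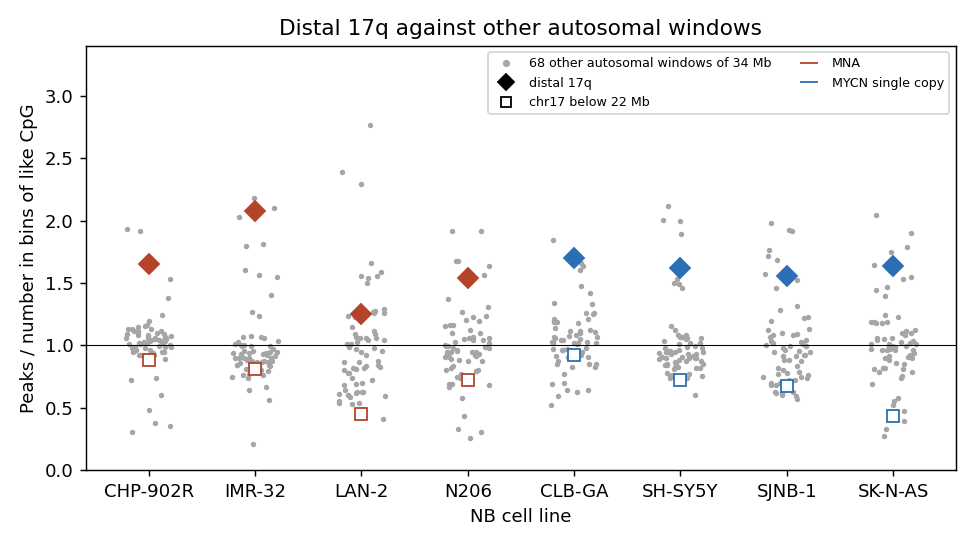
Number of peaks over the number in bins of like CpG content of the same line (y axis, ratio), for distal 17q (filled diamonds), chr17 below 22 Mb (open squares) and 68 other autosomal windows of 34 Mb (grey points), in each NB cell line. Diamonds lie at 1.25 to 2.08, with ranks of 2 to 9 among the windows in 7 lines and 16 in LAN-2, and squares lie below 1 in all 8 lines.

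Along the chromosome, the ratio to bins of like CpG content changed near the start of the segment and not at 45 Mb itself. From 26 to 30 Mb it was 0.538 in SK-N-AS, 0.920 in SJNB-1 and 1.07 to 1.30 in the other lines, so most lines were above 1 there too. From 30 to 40 Mb it was 0.480 in LAN-2 and 0.762 to 0.959 in the other lines. From 40 to 45 Mb it was 1.12 to 1.99, so that it rose 1.38 to 2.58 times over the step in all 8 lines. The 1 Mb just below the limit of 45 Mb held 46 to 98 peaks (median 73.0) and the 1 Mb above it 62 to 132 (median 81.5). At the other limit, the 1 Mb inside 79 Mb held 45 to 74 peaks (median 62.5) and the 1 Mb outside 38 to 75 (median 53.5).

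Within distal 17q, most bins of 2 Mb were above sequence of like CpG content. All 16 whole bins were above 1 in SH-SY5Y and SK-N-AS, 15 in the other lines except LAN-2, and 10 in LAN-2. The highest bin was 50 to 52 Mb in N206 (2.89), CLB-GA (3.43) and SK-N-AS (2.58), and 52 to 54 Mb in IMR-32 (3.86). It was 58 to 60 Mb in CHP-902R (2.31), LAN-2 (2.01) and SJNB-1 (2.19), and 68 to 70 Mb in SH-SY5Y (2.27). The end of the segment was lower than its body in each line. From 45 to 72 Mb the ratio was 1.35 to 2.40, and from 72 to 79 Mb it was 0.929 to 1.39.

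IMR-32 had a profile of its own shape. From 40 to 72 Mb, all 16 of its bins were above the median of the other lines, by 1.18 to 2.34 times. From 72 to 82 Mb, 1 of 5 bins was above it, at 0.772 to 1.01 times. The quotient of its ratio at 45 to 72 Mb (2.40) over that at 72 to 79 Mb (1.14) was 2.10, whereas the other 7 lines had 1.25 to 1.45. With 1 sample of each line, this difference has no replicate and was not tested.

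SK-N-AS stood apart on the centromere side. Its ratio was 0.538 from 26 to 30 Mb and 0.919 from 30 to 40 Mb, a quotient of 1.71. In the other lines the order was reversed, with quotients from 0.45 to 0.83. From 45 Mb on, its ratio of 1.75 at 45 to 72 Mb was close to the median of the 8 lines. CLB-GA had the most uneven profile, with 3.43 at 50 to 52 Mb and 0.544 at 66 to 68 Mb.

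**Figure D3:**
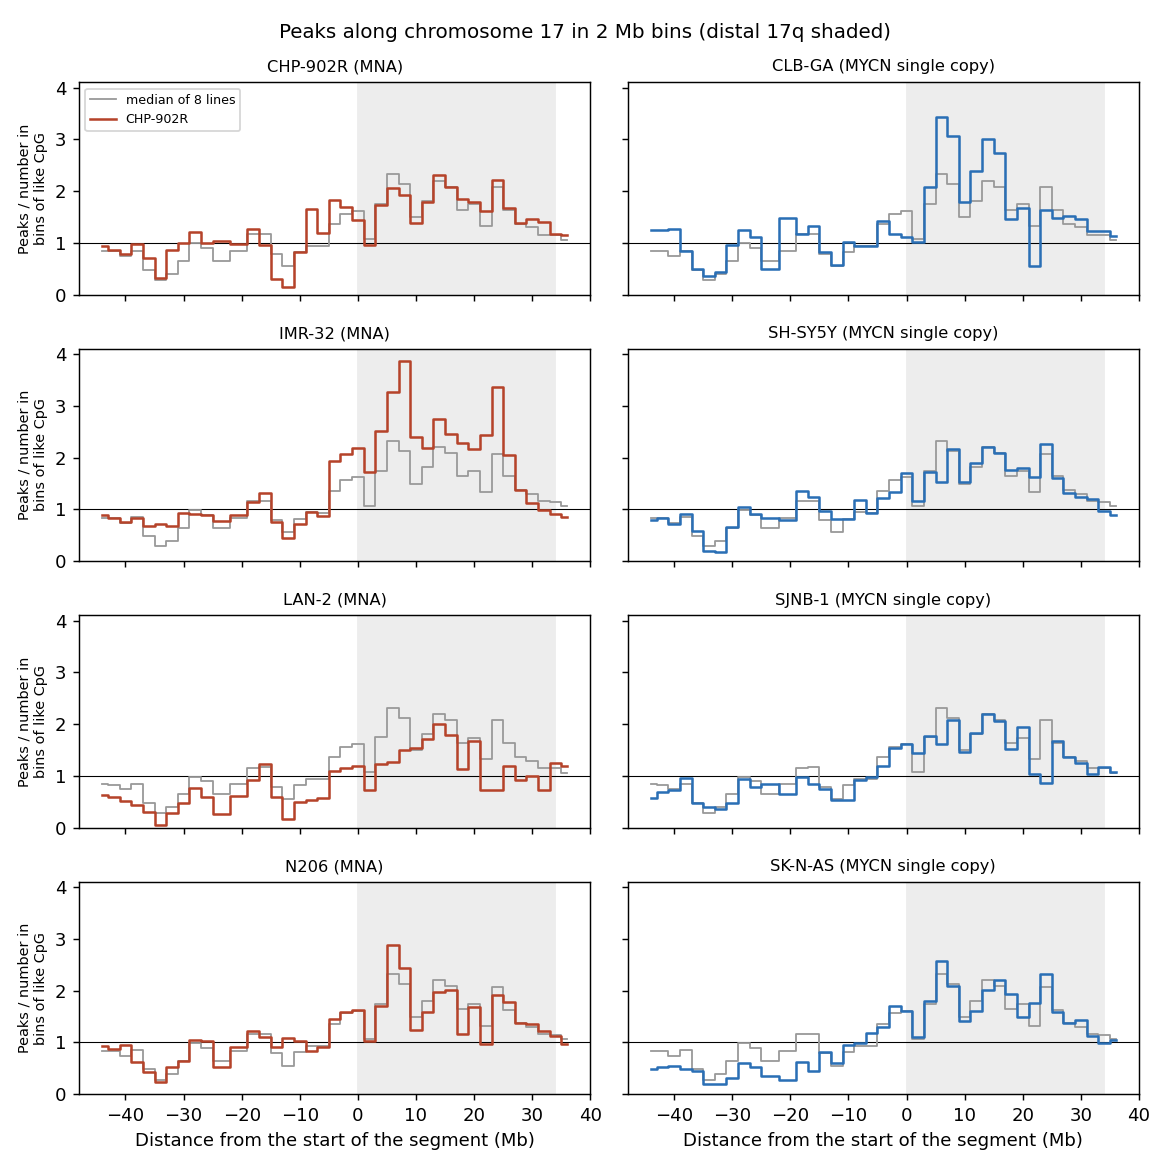
Number of peaks over the number in bins of like CpG content (y axis, ratio) in bins of 2 Mb along chr17, by distance from the start of distal 17q (x axis, Mb), 1 panel for each NB cell line, with MNA lines in red, single copy lines in blue, the median of the 8 lines in grey and distal 17q shaded. Values are above 1 from 40 Mb to the start of the shading in all lines. The bins at 26 to 28 Mb and at 28 to 30 Mb are also above 1 in 5 lines each. IMR-32 is above the grey line through most of the shading and not at its end, and SK-N-AS is below it on the short arm.

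The peaks of distal 17q were like other peaks in strength. Their median score stood at percentile 45.0 of the autosomal peaks of the line in LAN-2, the lowest, and at 51.7 in IMR-32, the highest. The mean distance from percentile 50 was -1.05 ± 2.35 (SD, n = 8), with 3 lines above it and 5 below (two-sided exact sign-flip permutation test, p = 0.297, adjusted p = 0.396). Once only scores of 100 or more were kept, the distance was positive, 3.5.

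In CpG content they were slightly poorer. The median was 2.36 CpG per 100 bp in IMR-32 and 3.01 in CLB-GA, the lowest and highest lines, against 2.54 and 3.14 for their peaks outside chr17. The mean difference was -0.0615 ± 0.0736 CpG per 100 bp (SD, n = 8), negative in 6 of 8 lines (two-sided exact sign-flip permutation test, p = 0.0469, adjusted p = 0.0703), so it failed the correction. Against peaks in bins of like CpG content the difference was negative in all 8 lines, from -0.237 in IMR-32 to -0.073 in LAN-2. The peaks of 17p differed in the other direction on that measure, by 0.003 to 0.237 CpG per 100 bp.

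Peaks of distal 17q lay in promoters more often than peaks elsewhere. A promoter was taken as 1500 bp upstream to 1000 bp downstream of a TSS. Of the peaks in the segment, 19.7% to 23.1% touched one, against 16.2% to 19.5% outside chr17, and the value was higher in 8 of 8 lines. The medians were 21.1% and 17.6%, and the gap was smallest in IMR-32 (19.8% against 19.5%). The segment is also denser in genes, with 373 protein-coding genes in 33.9 Mb against 18040 in 2607 Mb outside chr17. Whether the share in promoters exceeds what this gene density gives was not tested, so these values do not decide whether peaks prefer promoters. Peaks between genes made up 19.3% to 25.4%, against 24.7% to 28.7%, and were fewer in all 8 lines. Introns held 44.1% to 50.9% and exons 7.56% to 11.3%. *BCAS3* held the most peaks in its gene body, 53 to 82 by line, over 715.386 kb. *PRKCA*, a protein kinase C gene, followed with 31 to 62 over 508.131 kb, and *MSI2*, an RNA-binding regulator of stem cells, with 27 to 55 over 428.839 kb.

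Promoters of protein-coding genes had peaks more often in the segment than elsewhere. In the MNA lines 66.2% (IMR-32), 57.9% (N206), 53.1% (CHP-902R) and 53.1% (LAN-2) of the 373 genes had a promoter peak. In the single copy lines the values were 60.9% (SH-SY5Y), 55.5% (CLB-GA), 55.2% (SJNB-1) and 51.2% (SK-N-AS). Outside chr17 the lines had 33.9% to 41.8%, below the lowest value of the segment. The difference was 19.1 ± 3.98 percentage points (SD, n = 8) and positive in 8 of 8 lines (two-sided exact sign-flip permutation test, p = 0.0078, adjusted p = 0.0134). These values count a gene with a peak at any of its TSS. With 1 TSS for each gene, 19.0% (LAN-2) to 37.8% (IMR-32) of the genes of the segment had a peak. The difference was 8.50 points with 1 TSS for each gene and 7.61 with scores of 100 or more. With 1 TSS for each gene and genes of like CpG number, an alternative chosen after seeing the data, the mean was 7.20 points. LAN-2 then had -0.325, and the other lines 4.65 to 14.5.

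**Figure D4:**
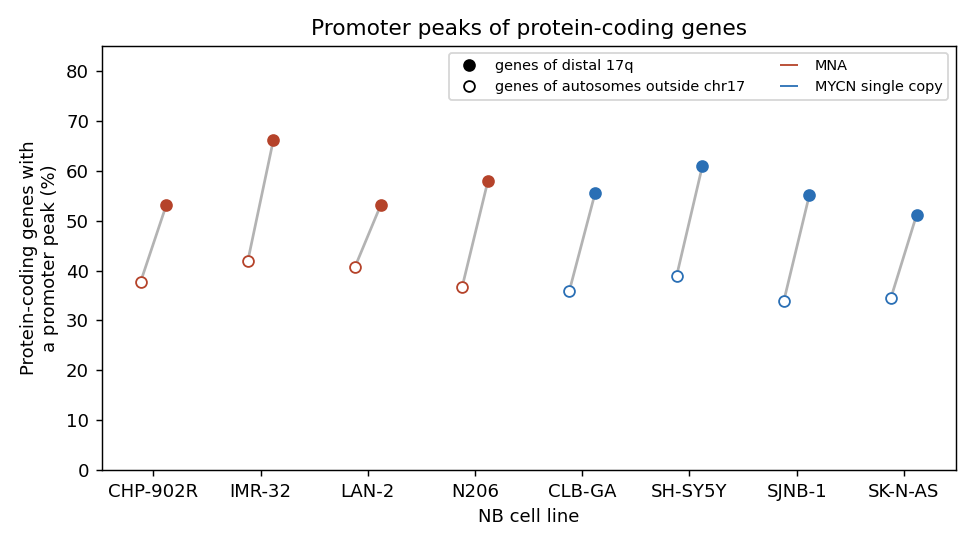
Percent of protein-coding genes with a promoter peak (y axis, %) among the genes of distal 17q (filled) and those of the autosomes outside chr17 (open), joined for each NB cell line, with MNA lines in red and single copy lines in blue. A gene counts with a peak at any of its TSS. Distal 17q is higher in all 8 lines, with 51.2% to 66.2% against 33.9% to 41.8%. With 1 TSS for each gene, the genes of distal 17q had 19.0% to 37.8%.

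Promoter peaks of genes of the segment, counted at any of their TSS, were found in more lines than those of genes elsewhere. Of the 373 protein-coding genes, 60 (16.1%) showed a promoter peak in each of the 8 lines, against a background of 6.4% of autosomal protein-coding genes. In at least 2 lines a peak was found for 308 genes (82.6%), against a background of 62.4%, and in no line for 35 (9.38%), against 24.8%. A gene of the segment had a promoter peak in a median of 5 lines, and a gene outside chr17 in 3. Of 50 miRNA genes, 25 (50.0%) had a peak in at least 2 lines, against a background of 27.1%. Among merged regions, 11.9% had a peak in at least 5 lines, against 6.44% outside chr17 and 4.64% in 17p. Regions with a peak in 1 line made up 46.2%, against a background of 55.9%. By line, 18.1% (LAN-2) to 22.3% (IMR-32) of the regions with a peak were seen in that line alone, against 25.2% to 32.8% outside chr17. A higher share of genes with a peak in each line raises the counts of shared genes, as a higher density of peaks does for shared regions. Sharing beyond this was not tested, and these counts were not made with 1 TSS for each gene.

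Of the 60 genes, *AXIN2* had the highest mean rank by score. It encodes a scaffold of the complex that degrades β-catenin, and lies at chr17:63524681-63557766 on the minus strand. In each line its promoter peak of highest score lay in chr17:63532337-63534857. This region lies at a TSS inside the gene and not at its 5′ end. This peak scored 268.29 in IMR-32, 178.61 in LAN-2, 144.55 in CHP-902R, 76.52 in N206, 274.71 in CLB-GA, 240.22 in SJNB-1, 124.22 in SK-N-AS and 111.32 in SH-SY5Y. Scores depend on the depth of a list, so those of different lines stand side by side here as values and not as a comparison.

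*TEX2* and *SMIM36*, at chr17:62224587-62340620 and chr17:53527217-53588813 on the minus strand, followed with scores of 93.02 to 183.17 and 79.51 to 213.23. A region of *TEX2* with a peak in all 8 lines also lay at a TSS inside the gene, at chr17:62232112-62233698. *CACNG1*, a subunit of the calcium channel of skeletal muscle, scored 70.56 to 248.46. *HSF5*, a heat shock factor gene used in the testis, had its lowest score of 51.84 in SK-N-AS, near the lowest in the lists, and its highest of 338.80 in CLB-GA. The remaining genes among the first 10 were *QRICH2*, *TANC2* (a scaffold of synapses), *TNRC6C* (a partner of Argonaute proteins in miRNA silencing), *CDK5RAP3* and *KIF2B* (a kinesin of the mitotic spindle), with scores from 59.68 to 225.11.

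Genes whose promoter peak separated the *MYCN* groups were near the background in number. A peak in all MNA and no single copy lines was found for 2 of 1052 genes, against a background of 0.152%. These were the miRNA gene *AC080037.1* at chr17:70710522-70710610, with scores of 65.76 to 95.22, and a *Y_RNA* gene at chr17:45634779-45634880, with 63.16 to 92.75. The latter belongs to a family of many like copies, so its reads may be shared with others. In the other direction 1 gene was found, *LRRC37A17P*, against a background of 0.0523%. None of the protein-coding genes of distal 17q had such a peak.

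In this and the following lists, a peak of a gene means a promoter peak at any of its TSS. The candidate genes of 17q gain are genes of the segment that are often named as drivers of it. Of 12 such genes, 5 to 10 (41.7% to 83.3%) had a promoter peak by line, and the median gene had one in 5 lines, as did the median protein-coding gene of the segment. *BRIP1*, a DNA helicase of repair, and *CLTC*, the clathrin heavy chain, had a peak in all 8 lines, with scores of 64.28 to 138.14 and 65.05 to 195.87. A region of *CLTC* with a peak in all 8 lines lay at a TSS in an intron, at chr17:57731010-57732174. *NME1* and *NME2*, nucleoside diphosphate kinases, had one in 6 lines each. *PPM1D*, a phosphatase that restrains p53, had one in 6 lines, with scores of 51.71 to 101.77. *TBX2*, a T-box transcription factor, and *IGF2BP1*, an RNA-binding protein, had one in 4 and 5 lines. *BIRC5*, which encodes survivin, had one in LAN-2 (59.67) and CLB-GA (72.99) only. *RPS6KB1*, an S6 kinase, had one in CHP-902R (68.53) and IMR-32 (118.93) only. *TK1*, the thymidine kinase of dividing cells, had none in any line. Of the others, *TRIM37* had one in 5 lines and *PHB1* in 3.

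The HOXB cluster, a row of homeobox genes that set position along the body axis, differed most between lines. In IMR-32 9 of 10 genes had a promoter peak, with 2 in SK-N-AS, 1 in CLB-GA, 1 in SJNB-1 and 0 in the other 4 lines, and the median gene had one in 1 line. Of all protein-coding genes of the segment, 66.2% had one in IMR-32 and 51.2% to 60.9% in the other lines. The peaks of IMR-32 scored 53.21 at *HOXB3* and *HOXB4*, which share 1 peak, and 141.19 at *HOXB2*. They scored 136.1 at *HOXB7*, 103.18 at *HOXB9*, 77.72 at *HOXB6*, 70.52 at *HOXB1*, 56.19 at *HOXB5* and 55.54 at *HOXB8*. Outside IMR-32, *HOXB1* had a peak in CLB-GA (60.69), SJNB-1 (101.65) and SK-N-AS (60.71), and *HOXB7* in SK-N-AS (85.7). *HOXB13*, set apart from the others, had none in any line.

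Over chr17:46605888-46710934, from *HOXB1* to *HOXB7*, IMR-32 had 16 peaks that covered 10.463 kb. SK-N-AS had 3, SJNB-1, LAN-2, SH-SY5Y and CLB-GA had 1 each, and CHP-902R and N206 had none. The peaks of IMR-32 in this stretch had a median score of 74.12 and a median of 8.00 CpG per 100 bp, against 71.33 and 2.54 for its peaks outside chr17. They were thus close to other peaks in score and richer in CpG. This stretch lies in the part of chr17 in which all bins of IMR-32 were above the other lines, and the part of that excess in the HOXB peaks was not tested.

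**Figure D5:**
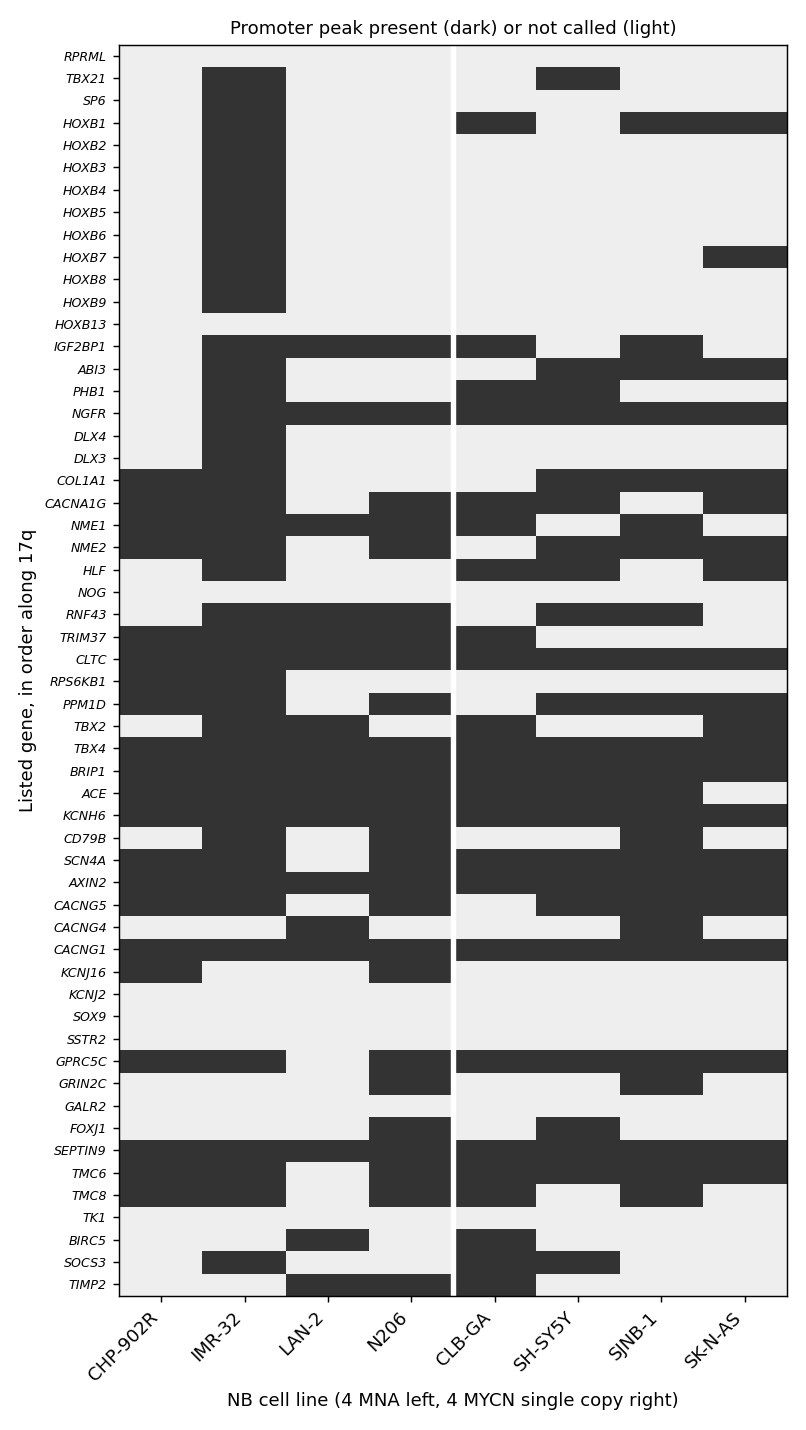
Presence (dark) or absence (light) of a promoter peak for the listed protein-coding genes, in order along distal 17q (y axis), in 8 NB cell lines (x axis, MNA left and *MYCN* single copy right of the white line). The HOXB genes are dark almost only in IMR-32, where 9 of 10 have a peak, and *BRIP1*, *CLTC*, *TBX4*, *AXIN2*, *CACNG1*, *KCNH6* and *SEPTIN9* are dark in all 8 lines.

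IMR-32 also led among the other developmental regulators, with 10 of 14 genes against 2 to 6 in the other lines. Its 71.4% was near the 66.2% of all protein-coding genes of the segment in IMR-32. The other lines had 14.3% to 42.9% of the list, below their 51.2% to 60.9% of all these genes. The median gene of this list had a promoter peak in 2 lines, against 5 for the protein-coding genes of the segment. *DLX3* (160.86) and *DLX4* (213.1), homeobox genes related to Distal-less of the fly, and *SP6* (52.78), a zinc finger factor of teeth and limbs, had a promoter peak in IMR-32 only. *TBX4*, a limb transcription factor, and *AXIN2* had one in all 8 lines, with *TBX4* at 51.73 to 125.31. *RNF43*, which removes WNT receptors from the cell surface, had one in 5 lines, with scores of 70.64 to 189.56. *SOX9*, *NOG* and *RPRML* had no promoter peak in any line. Inside *SOX9*, beyond its promoter windows, the region chr17:70118717-70120891 had a peak in all 8 lines, with scores of 97.2 to 261.05. *SOX9* is a regulator of cartilage and neural crest, and *NOG* an inhibitor of BMP ligands.

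Over the 65 listed genes, which all lie in the segment, IMR-32 had a promoter peak at 44, and 11 of these had one in no other line. These 11 were 7 HOXB genes, *DLX3*, *DLX4*, *SP6* and *MIR152*. The other lines had 19 to 26 genes, of which LAN-2 and CLB-GA had 1 each to itself. Among all 373 protein-coding genes IMR-32 had 247 (66.2%) with a peak, close to its share of the list. The other lines had 191 to 227 (51.2% to 60.9%). Of the 373, 30 (8.04%) had a peak in 1 line only, and how many of these were in IMR-32 was not counted. The list also holds 9 miRNA genes, which the 373 do not.

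Of 13 listed receptors and channels, not all of them neuronal (*CACNG1* is of skeletal muscle), 4 (LAN-2) to 9 (N206) had a promoter peak. The median gene had one in 6 lines. These are 30.8% to 69.2% of the list, around the 51.2% to 66.2% of all protein-coding genes of the segment. *NGFR*, the low-affinity receptor of neurotrophins, had one in 7 lines, with scores of 71.55 in CLB-GA to 129.65 in SK-N-AS, and none in CHP-902R. *CACNA1G*, a T-type calcium channel, had one in 6 lines, with scores of 61.68 to 311.28. *KCNH6*, a potassium channel, had one in all 8 lines, and *GPRC5C* and *SCN4A* in all but LAN-2. *SSTR2*, the somatostatin receptor used for imaging of NB, *GALR2*, a galanin receptor, and *KCNJ2* had none in any line.

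Of 16 genes known for promoter methylation in tumors, 5 (LAN-2) to 13 (IMR-32) had a peak, and the other lines had 7 to 9, with a median of 4.5 lines for a gene, against 5 for all protein-coding genes of the segment. The 7 to 9 genes are 43.8% to 56.2% of the list, below the share of all protein-coding genes of the segment in the same lines except CLB-GA and SJNB-1. *SEPTIN9*, whose methylation serves as a blood marker of colorectal cancer, had one in all 8 lines, with 69.25 in SH-SY5Y to 163.08 in N206. *TMC6* and *ACE* had one in 7 lines each, and *TMC6* shares its peak with *TMC8* in 5 of them. *SOCS3*, an inhibitor of cytokine signalling, had one in IMR-32 (85.34), CLB-GA (117.39) and SH-SY5Y (135.83). *TIMP2*, an inhibitor of matrix proteases, had one in LAN-2 (88.84), N206 (102.36) and CLB-GA (50.78).

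Of 9 listed miRNA genes, *MIR152* had a peak in IMR-32 only (140.13), *MIR196A1* in IMR-32 and SK-N-AS with the peak of *HOXB7*, and *MIR454* in 3 lines. *MIR21*, an oncogenic miRNA, had none in any line. The absence of a peak says that none was called in that list and does not show that the promoter is unmethylated.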

How the data were processed

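MBD-seq peak lists of 8 NB cell lines were used, 1 sample for each line. The authors mapped the paired-end reads on GRCh37 with Bowtie 0.12.7 and ran MACS on each line by itself. The deposited lists give the position of each peak and its score, which MACS derives from the p-value of the peak and which was 50 or more in every list. The options of the peak calling and an input control are not given in the sources used here. No read counts come with the lists, and the study gives its read numbers as a range over lines. The depth of a single list was therefore not known here, the reads were not analysed, and the presence of a peak has no interval.

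Peaks were placed by their midpoint and counted per Mb of known GRCh37 sequence with Python 3.11.15, numpy 2.4.6, pandas 2.3.3 and pysam 0.24.0. From the same sequence came the CpG content and the share of 45 bp windows that occur once, with numba 0.67.0. Bins of 100 kb outside chr17 were sorted into 20 classes of CpG content. Genes and TSS were those of GENCODE release 44 in GRCh37 coordinates (61221 autosomal genes), and an overlap of 1 bp with a window sufficed. Overlapping peaks of the lines were merged into regions. Groups were taken from the labels and compared with two-sided exact permutation tests, and ratios over lines were tested with two-sided exact sign-flip permutation tests (scipy 1.17.1). The counting and the tests were first tried on simulated lists. P-values measure the spread between lines.

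The segment, the gene lists and the tests were chosen with earlier results of these data known. Genes named are the listed ones, up to 10 for each direction that separates the *MYCN* groups, and the first 10 protein-coding genes with a promoter peak in all 8 lines by mean rank of the score. Regions named are the first 6 with a peak in all lines and the first 4 in each direction, in the same order. Of the listed symbols, 8 were left out because the annotation does not hold them under that symbol or places them outside the segment. Some items of the lists and some of the sequences are not reported here. Alternatives were a score minimum of 100, lists cut to equal length (the 70110 highest peaks), peaks within 500 bp merged, a start at 40 or 50 Mb, cover in place of number, shares without chr2, other promoter windows, and each line left out. The comparisons with bins and genes of like CpG content, and the test of peak width, were added after seeing the data. The counts behind the differential test of the study, its arrays and its MSP data were not analysed here.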

Additional observations from a re-analysis of the deposited data

Results flagged for a closer look

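Groups of 4 lines were searched for a line whose gap to the nearest other line took up most of the range of the group (Dixon's ratio above its 95% critical value). Of 40 groups examined 4 met this, where chance gives about 1 in 20. Most of these were small counts of genes, in which tied lines give a ratio of 1.0 whenever 1 line differs.

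Among the single copy lines, SK-N-AS stood apart in the quotient of the ratio at 30 to 40 Mb over that at 26 to 30 Mb of chr17 (1.71, against 0.71 to 0.83 in the other 3 lines, Dixon's ratio 0.883). Among the MNA lines, IMR-32 stood apart in the HOXB cluster, with 9 genes against 0 in each of the other 3 (ratio 1.0), and in the candidate genes of 17q gain, with 10 genes against 7 in each of the others (ratio 1.0). SK-N-AS had 7 of the genes known for promoter methylation in tumors where the other single copy lines had 9 each (ratio 1.0).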

How the results depend on the processing

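The higher density of distal 17q than of 17p, of the other autosomes and per CpG, and the higher share of promoters with a peak, kept their direction and stayed past the threshold in every alternative run. The comparisons of the *MYCN* groups stayed short of the threshold in every alternative, but their sign was not stable. As a ratio to bins of like CpG content the difference became 0.0021 (MNA mean 1.6314, single copy mean 1.6293), while the means of the log2 ratios were 0.68 and 0.70. The difference in the log2 ratio of distal 17q to 17p became 0.02 with a score of at least 100 (0.023) and 0.03 with equal numbers of peaks (0.026). The distance of the score from percentile 50 became 3.5 with a score of at least 100 (p = 0.0312 in the exact sign-flip permutation test) and 0.141 with equal numbers. The difference in CpG content lost its unadjusted call with equal numbers (-0.0512, p = 0.133 in the exact permutation test) and with a start at 40 Mb (-0.0303, exact p = 0.289). Regions with peaks in all MNA and no single copy lines numbered 2 with a score of at least 100 and 9 with equal numbers, against 19. The opposite regions numbered 1 with a score of at least 100 and 3 with a start at 50 Mb, against 5. The cause of these changes was not tested.

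When lines were left out singly, the difference in the share of peaks ran from -0.421 to 0.0844 and that in the share of cover from -0.512 to 0.0835, lowest without IMR-32 (exact permutation p = 0.143 and 0.0571) and positive without LAN-2. The difference in the log2 ratio to 17p ran from -0.20 to 0.16, positive without CHP-902R (the 7 lines of the results text of the study) and without SK-N-AS. The difference in CpG content ran from -0.0757 to -0.0434 (exact permutation p from 0.0312 to 0.0938, above 0.05 except without LAN-2 or SK-N-AS), and the distance of the score from -1.44 to -0.488. The MNA regions rose to 27 to 46 (46 without N206, 39 without LAN-2, 37 without CHP-902R, 36 without IMR-32, 30 without SH-SY5Y, 29 without CLB-GA) and the single copy regions to 6 to 22 (22 without SK-N-AS, 15 without CLB-GA, 13 without SJNB-1 or IMR-32, 12 without SH-SY5Y, 11 without CHP-902R, 8 without LAN-2), as fewer lines had to share a pattern.

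No paired analysis was possible because the lines are unrelated and their replicate numbers, given in accession order, only name them. Neither depth nor copy number was known here for a single list, so a missing peak is no measure of methylation.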
